A study of Sus scrofa with 28 samples.

Results

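The genes described here cover the core of de novo lipogenesis and the factors that switch it on, and their chromatin was followed through 28 ATAC-seq peak lists from pig liver. They are THRSP, ELOVL6, ELOVL5, ACLY, ACACA, FASN, SCD, SREBF1, MLXIPL and FADS2, 10 of the 28073 annotated genes on the chromosomes of the peak lists. A listed peak belonged to a gene when its centre lay inside the gene or within 1000 bp of either annotated end (RefSeq, build Sscrofa11.1). That rule gave 118 of the 84192 listed peaks, 0.140%, which overlapped into 29 separate regions.

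ATAC-seq marks accessible DNA, because a transposase inserts adapters where chromatin is open and those fragments are sequenced. In such bulk libraries fewer cells with an open site and less opening per cell cannot be told apart. The livers came from female Zlotnicka White pigs of 180 days, kept under the same feeding and housing and slaughtered at 100 ± 2 kg. The labels form 4 groups of 7 libraries, high fat 600, low fat 600, high fat 200 and low fat 200. They place the fat content under a tag named shear force, and they state neither the tissue the fat refers to, nor the limit between high and low, nor the meaning of 600 and 200. All 600 libraries carry 1 lane name and all 200 libraries another, so the number and the lane cannot be told apart. Each title number, the last number of a library title, occurs in both the 600 and the 200 set, with the same fat label in both. Nothing in the labels says that 2 libraries come from separate animals, so p-values measure the spread between these libraries, some of which may be technical.

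De novo lipogenesis turns surplus carbohydrate into fatty acids. Citrate leaves the mitochondrion and ACLY splits it into acetyl-CoA, ACACA carboxylates acetyl-CoA to malonyl-CoA, and FASN builds palmitate from the malonyl units. ELOVL6 lengthens palmitate to stearate and SCD puts a double bond into both, while ELOVL5 and FADS2 lengthen and desaturate polyunsaturated chains. SREBF1 encodes a sterol regulatory element-binding protein that carries the insulin signal to these genes, MLXIPL encodes the carbohydrate response element-binding protein, and THRSP encodes a thyroid hormone-responsive nuclear protein of lipogenic tissues. In pigs, adipose tissue makes more fatty acid than the liver does.

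Libraries differed widely in the size of their peak lists, from 39 to 17652 peaks, and 10 libraries had 3332 or more. Sequencing depth is unknown, so an unlisted gene cannot be read as closed. Of all protein-coding genes, 61.6% were listed in at least 1 library, and the marker lists that follow were not tested against this share. Markers of hepatocytes, the main liver cell, were listed for 7 of 7 genes, HPX in 12 libraries, TTR and FGG in 8 each, ALB in 7, HNF4A in 6, and APOA1 and SERPINA1 in 2 each. Among markers of other cells, 1 of 6 was listed for Kupffer cells and macrophages (CD14 in 6 libraries), 1 of 7 for endothelial and stellate cells (STAB2 in 1), 1 of 5 for lymphocytes (NKG7 in 1), 1 of 3 for erythroid cells (GATA1 in 2), 0 of 4 for cholangiocytes and 0 of 4 for adipocytes.

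Every lipogenesis gene was listed in at least 1 library, and 8 of 10 in at least 3. Of all 19484 protein-coding genes, 61.6% were listed in at least 1 library and 39% in at least 3. The median was 5 libraries over the 10 genes and 1 over all protein-coding genes. ELOVL6 was listed in 16 libraries, THRSP and ACACA in 10 each, ELOVL5 in 7, ACLY and FADS2 in 5 each, SREBF1 in 4, MLXIPL in 3, SCD in 2 and FASN in 1. Neighbours in this order are 0 to 6 libraries apart and were not tested against each other. At 4 of 10 genes at least 7 libraries had a peak, against 18.8% of all protein-coding genes, and 9 of 10 were listed near an end (1000 bp or less from the peak centre), against 47%. For ACACA the end listing rests on 1 library and a peak that also overlaps the gene TADA2A, and for SREBF1 on 1 library. The 600 libraries listed 5 of 10 genes, against 33.2% of all, and the 200 libraries 10 of 10, against 60.5%. Peaks count anywhere inside a gene, and the median protein-coding gene measured 20697.5 bp. Of the 4 genes listed in at least 7 libraries, ACACA measured 294152 bp, ELOVL6 151410 bp, ELOVL5 72178 bp and THRSP 4411 bp. The part of gene length in the comparisons with all protein-coding genes was not tested.

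**Figure D1:**
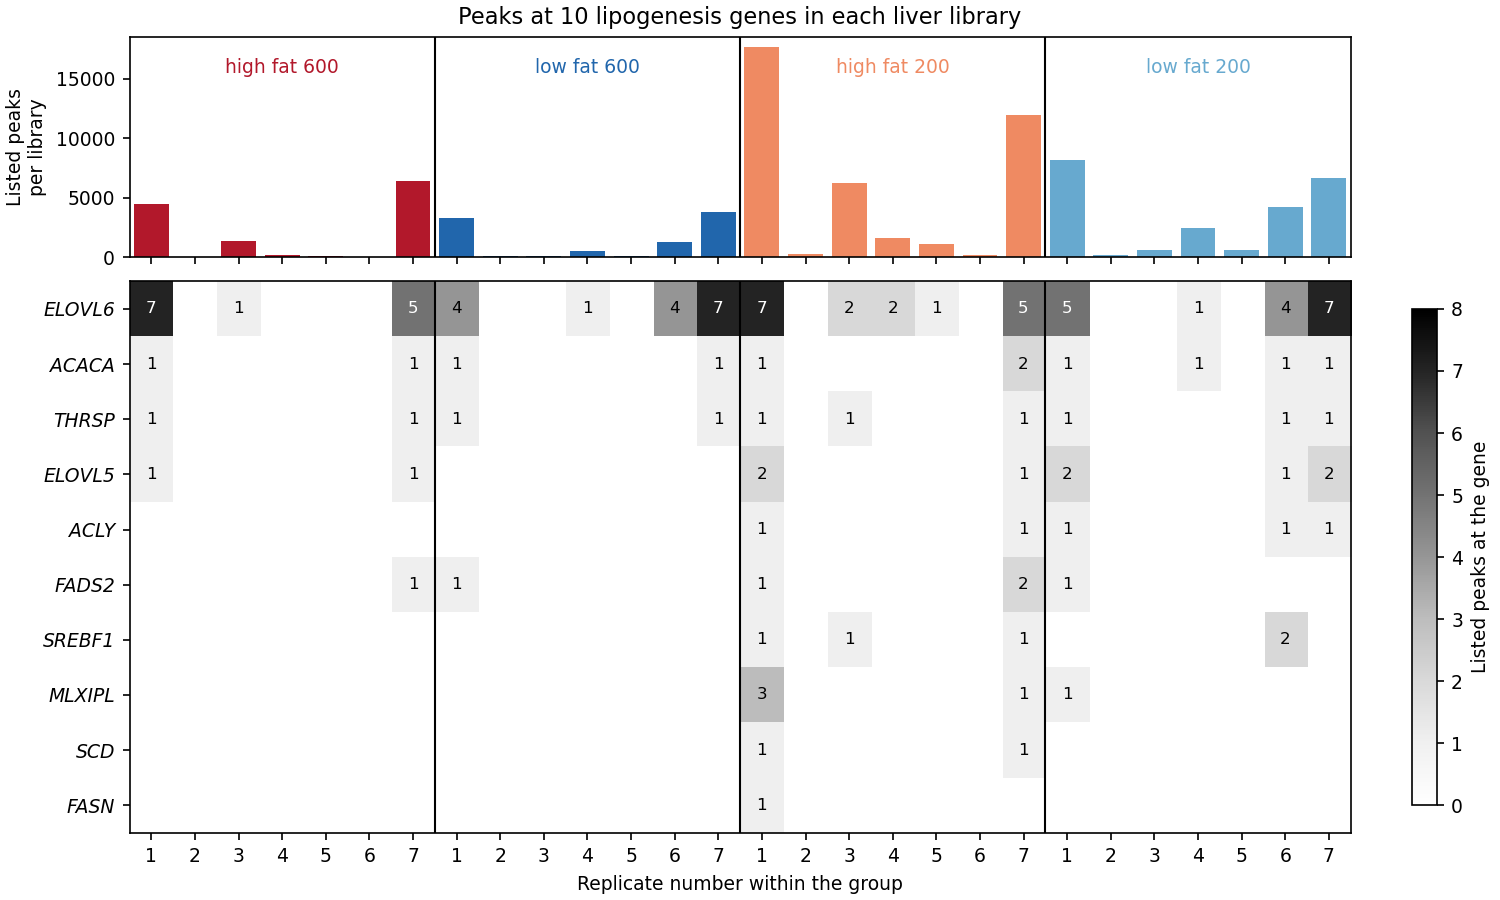
Number of listed peaks at each of the 10 lipogenesis genes (rows) in each of the 28 libraries (columns, by group and replicate number), with all listed peaks per library above as bars. ELOVL6 carried up to 7 peaks in a library, and high fat 200 replicate 1, with 17652 listed peaks, was the library that listed all 10 genes.

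Which libraries listed the genes went with the size of their peak lists. The 12 libraries without any lipogenesis gene had at most 635 peaks, and the 16 with at least 1 gene had 526 or more. High fat 200 replicate 1, with 17652 peaks, listed 10 of 10 genes, and high fat 200 replicate 7, with 11943, listed 9. Low fat 200 replicate 1, with 8221 peaks, listed 7. In these 3 libraries 48.2%, 40.3% and 32.8% of all protein-coding genes were listed. Among smaller lists the number of genes did not follow size strictly. High fat 200 replicate 3, with 6288 peaks, listed 3 genes, while low fat 200 replicate 6, with 4208, listed 6. The 10 largest lists held 90.7% of the peaks at the lipogenesis genes and 86.7% of all peaks. The part of list size in any result that follows was not tested beyond the values given with it.

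**Figure D2:**
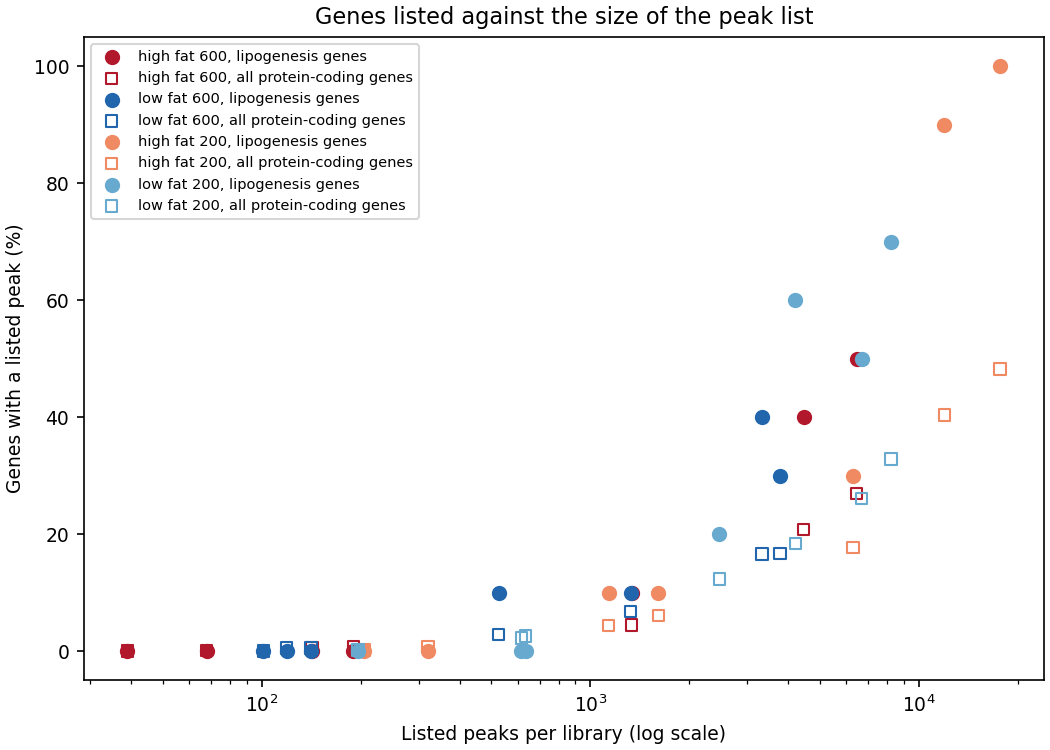
Percent of the 10 lipogenesis genes (filled circles) and of all protein-coding genes (open squares) listed in each library, against the number of listed peaks on a log axis. Both rise with list size, and the 2 highest circles, 100% and 90%, are high fat 200 replicates 1 and 7.

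ELOVL6 held the largest share of the peaks, 63 of the 118 peaks or 53.4%. The gene runs over 151410 bp of chromosome 8, from 112038670 to 112190079, and had 8 regions, 7 of which recurred in at least 3 libraries. Only 4 of 19484 protein-coding genes had 7 or more such recurrent regions. These 4, named after their values were seen, were ITPR1 with 9 in 330788 bp, ACSS3 with 7 in 156975 bp, PDE4D with 7 in 1509235 bp and ELOVL6. Per 10 kb of gene, recurrent regions numbered 0.462 in ELOVL6, 0.446 in ACSS3, 0.272 in ITPR1 and 0.0464 in PDE4D. These 4 were picked for their number of recurrent regions, and no such density over all genes is given here. ELOVL6 is itself long, and 8.97% of protein-coding genes are at least as long.

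Most of the recurrent ELOVL6 regions lay inside the gene, away from its ends. The annotation used here gives no strand, so the lower-coordinate end is not called a start or an end of transcription. Region 1 (112038349 to 112039729) spanned the lower end and was listed in 7 libraries, with region 2 (112039895 to 112041720) in 4 and region 3 (112043210 to 112043940) in 5. These 3 fell within 5592 bp. Region 5 (112112193 to 112114218) lay near the middle of the gene and was listed in 8 libraries. Region 4 (112091870 to 112092251) came from high fat 200 replicate 3 alone.

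The most recurrent stretch lay toward the upper end of ELOVL6, where regions 6, 7 and 8 fell within 9088 bp. Region 6 (112175921 to 112176968) was listed in 11 libraries, region 7 (112178764 to 112180280) in 12 and region 8 (112183579 to 112185008) in 14. All 16 libraries that listed ELOVL6 listed at least 1 of these 3, and 10 libraries listed all 3. Region 8, with its centre 5786 bp from the upper end of the gene, also overlaps LOC110261988, an annotated long noncoding RNA. Of 29392 regions in the whole set, 1.59% were listed in 14 or more libraries.

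**Figure D3:**
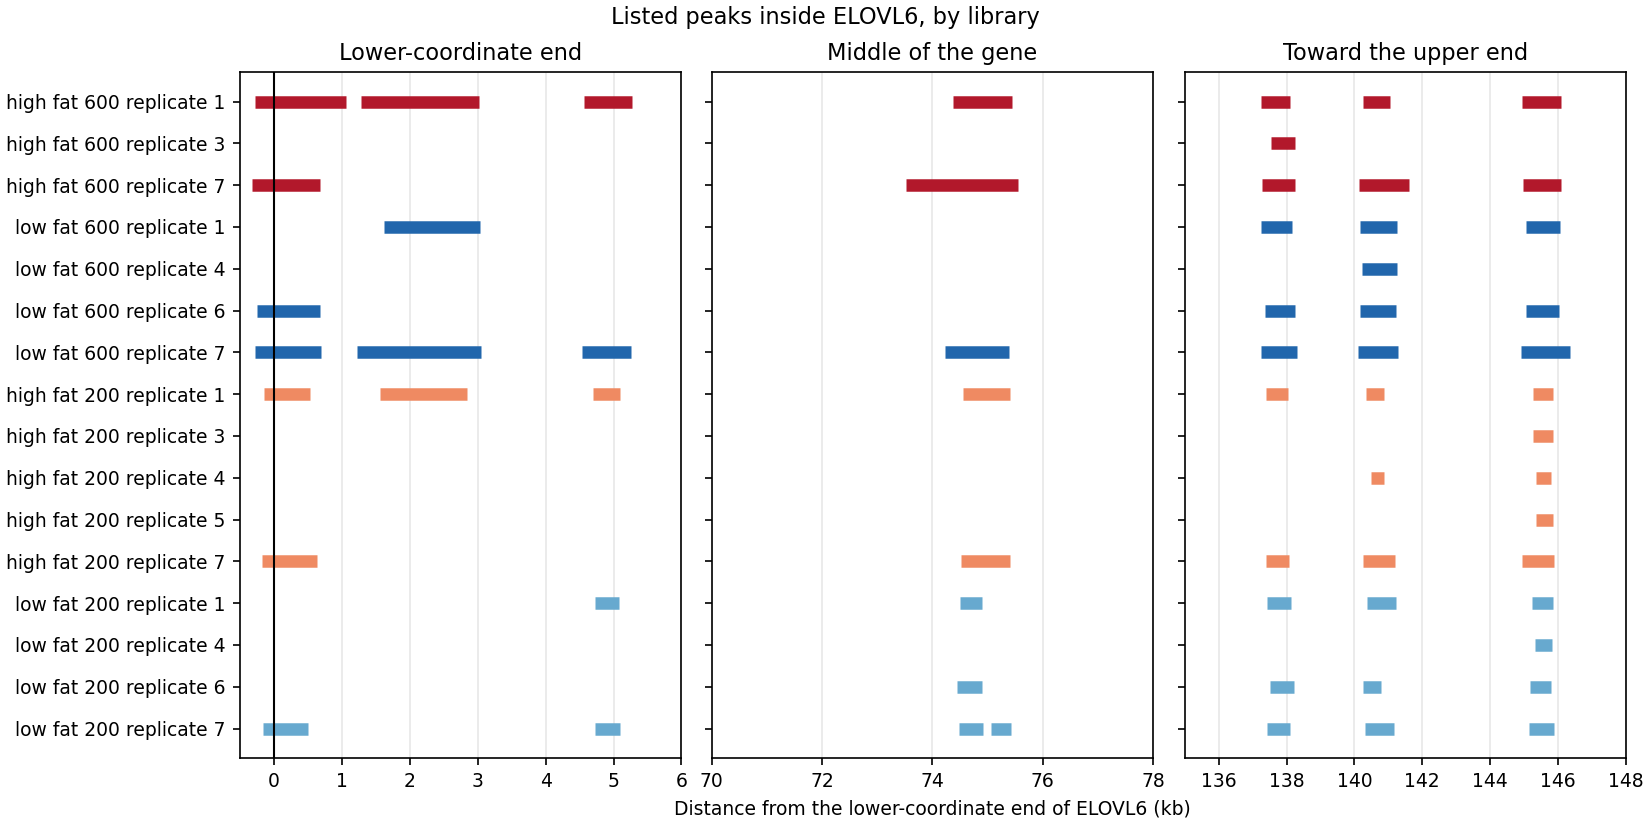
Position and width of the listed peaks at ELOVL6 in the 16 libraries that listed it, as distance in kb from the lower-coordinate end of the gene (black line), in 3 panels; bars are peaks, coloured by group. The region of 1 library near 53 kb is not drawn. The 3 regions in the right panel recurred in 11, 12 and 14 libraries and sat at the same positions in every group.

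Region 8 also held the strongest peaks of the 10 genes. Its deposited −log10 p, the authors' own value per peak, was 4.77 in high fat 600 replicate 1 and 5.48 in replicate 7, against 4.80, 4.19 and 4.82 in low fat 600 replicates 1, 6 and 7. In the 200 libraries it was 7.98, 3.74, 4.54, 3.93 and 7.55 in high fat replicates 1, 3, 4, 5 and 7, against 6.29, 4.07, 6.66 and 7.38 in low fat replicates 1, 4, 6 and 7. High and low fat values overlapped in both sets. Within each library, a median of 85.1% of the library's peaks had a lower −log10 p than region 8, with a range of 7.76% to 97.9% over the 14 libraries. The low end of that range was high fat 200 replicate 3. There the region's 3.74 equalled the library's median −log10 p, so that many of its peaks shared this value.

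At region 7 the −log10 p was 4.00 and 6.16 in high fat 600 replicates 1 and 7, against 4.08, 3.59, 4.13 and 5.01 in low fat 600 replicates 1, 4, 6 and 7. Among 200 libraries it was 6.25, 3.88 and 6.07 in high fat replicates 1, 4 and 7, against 4.25, 3.98 and 5.64 in low fat replicates 1, 6 and 7. The groups overlapped in both sets here as well. Low fat 600 replicate 4, with only 526 listed peaks, had its single lipogenesis peak in this region.

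At region 6 the values were 3.44, 3.18 and 4.33 in high fat 600 replicates 1, 3 and 7, against 3.29, 3.50 and 5.25 in low fat 600 replicates 1, 6 and 7. For the 200 libraries they were 5.35 and 5.78 in high fat replicates 1 and 7, against 4.48, 4.68 and 6.27 in low fat replicates 1, 6 and 7. Low fat replicate 7 was the highest of either fat group in both sets.

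The other recurrent regions of ELOVL6, regions 1, 2, 3 and 5, were listed in 4 to 8 libraries each. Region 1 had a −log10 p of 4.57 and 3.48 in high fat 600 replicates 1 and 7, against 3.30 and 3.85 in low fat 600 replicates 6 and 7, and in the 200 set 4.62 and 4.81 in high fat replicates 1 and 7, against 4.83 in low fat replicate 7. Region 5 had 3.72 and 4.20 in high fat 600 replicates 1 and 7, against 3.53 in low fat 600 replicate 7, and in the 200 set 5.35 and 4.60 in high fat replicates 1 and 7, against 4.69 in low fat replicate 1, 4.18 in replicate 6, and 5.64 and 4.58 for 2 peaks in replicate 7. The fat groups overlapped at region 5 in the 200 set, and the single low fat 200 value of region 1 lay above both high fat ones. Region 2 had 4.24 in high fat 600 replicate 1, against 3.57 and 4.46 in low fat 600 replicates 1 and 7, and 3.98 in high fat 200 replicate 1 with no low fat 200 library listed. Region 3 had 3.14 in high fat 600 replicate 1, against 3.14 in low fat 600 replicate 7, and 5.22 in high fat 200 replicate 1, against 4.88 and 5.84 in low fat 200 replicates 1 and 7. Regions 1, 2 and 6 were listed in more 600 than 200 libraries, with 4 against 3, 3 against 1 and 6 against 5. None of these differences passed an adjusted two-sided Fisher's exact test over regions, which 42 of 8592 regions passed. Of all tested genes, 5.17% were listed in more 600 than 200 libraries, and no such share over regions is given here.

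THRSP had the clearest single site at a gene end. The gene is short, 4411 bp on chromosome 9 from 12479913 to 12484323, and all 10 of its peaks formed 1 region from 12479186 to 12480544 across its lower end. Their −log10 p was 5.37 and 4.20 in high fat 600 replicates 1 and 7, against 4.50 and 4.89 in low fat 600 replicates 1 and 7. Its 200 values were 6.68, 3.74 and 5.00 in high fat replicates 1, 3 and 7, against 5.22, 4.52 and 6.79 in low fat replicates 1, 6 and 7. The fat groups overlapped in both sets. The 10 libraries that listed THRSP were exactly the 10 with the largest peak lists, 3332 peaks or more, while the largest list without it had 2467. No other annotated gene lay within 1000 bp of this region.

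The enzymes that make acetyl-CoA and malonyl-CoA, ACLY and ACACA, were listed in fewer libraries than ELOVL6. ACLY (chromosome 12, 20796678 to 20841301) had 1 region, from 20796330 to 20796955 over its lower end, and 0 of 14 600 libraries listed it. Its −log10 p in the 200 set was 5.55 and 3.84 in high fat replicates 1 and 7, against 5.06, 3.98 and 4.71 in low fat replicates 1, 6 and 7. These overlapped, and the largest list without ACLY was a 600 library of 6453 peaks.

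ACACA (chromosome 12, 38580916 to 38875067) is the longest of the 10 genes at 294152 bp, and all but 1 of its 11 peaks fell in 1 internal region from 38824453 to 38825622. That region lies 50030 bp from the upper end and overlaps no other annotated gene. Its −log10 p was 3.72 and 3.86 in high fat 600 replicates 1 and 7, against 3.47 and 3.42 in low fat 600 replicates 1 and 7. In the 200 set it was 6.68 and 6.43 in high fat replicates 1 and 7, against 5.06, 3.91, 3.77 and 4.58 in low fat replicates 1, 4, 6 and 7. Among listing libraries the high fat values were thus the higher ones in both sets. However, high fat 200 replicates 1 and 7 also had the largest peak lists of all. More low fat than high fat 200 libraries listed the region, 2 high fat against 4 low fat. In the 600 set, high fat replicates 1 and 7 had the largest lists as well, 4455 and 6453 peaks. Low fat 600 replicates 1 and 7 had 3332 and 3775. The high fat values of both sets carry title numbers 1 and 11, so the sets cannot be taken as independent. The part of list size in this separation was not tested. The eleventh ACACA peak, in high fat 200 replicate 7, lay 319 bp above the upper end, inside TADA2A, and cannot be assigned to either gene.

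That separation was common across the genome. In the 200 set, 2 of the 8 lipogenesis regions listed in at least 2 high and 2 low fat libraries had every high fat −log10 p above every low fat one, ACACA region 1 and ELOVL5 region 1, against 32.7% of 4929 such regions in all. In the 600 set it was 1 of 6, ACACA region 1, against 33.9% of 2243. The reverse was found in 0 of 8 and 0 of 6 lipogenesis regions, against 0.913% and 0.981% of all. Unlisted libraries have no value, so these separations were not tested.

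**Figure D4:**
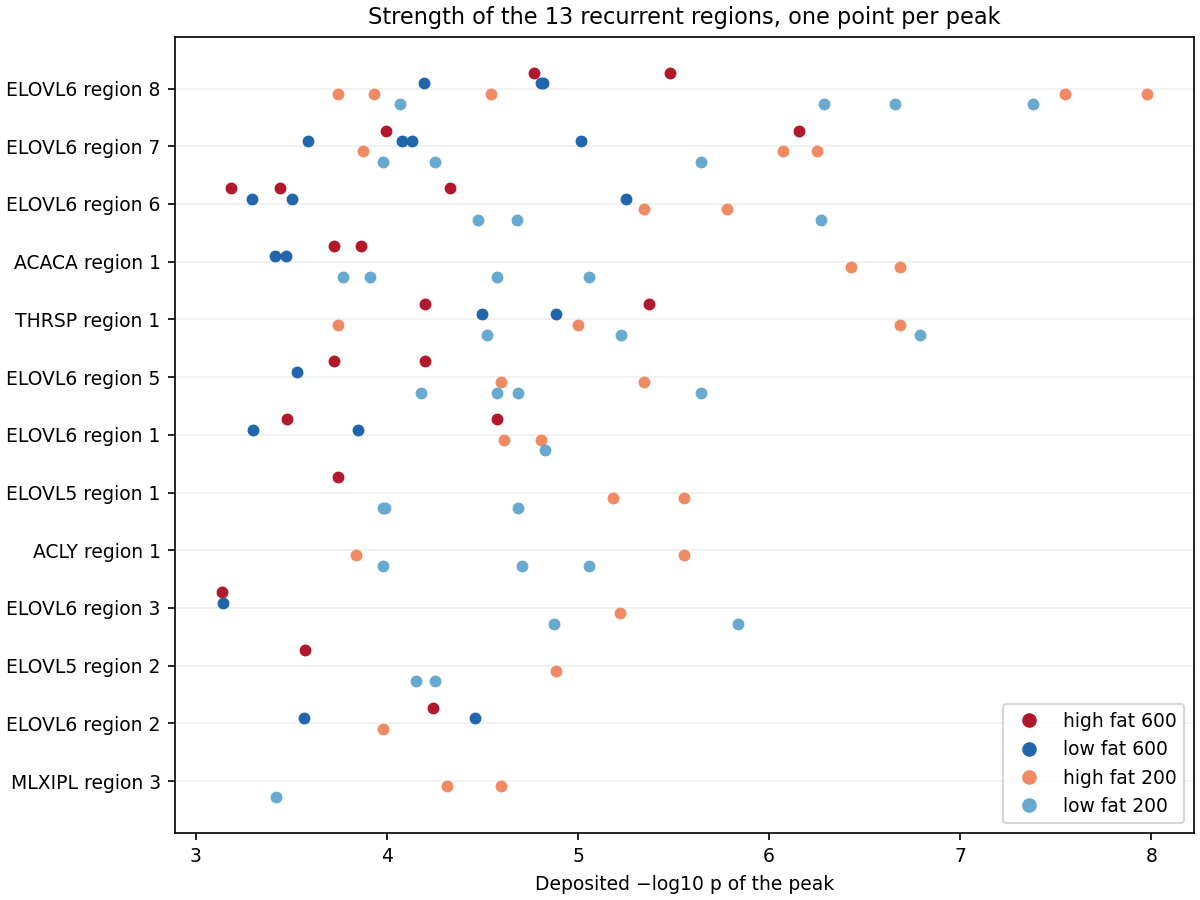
Deposited −log10 p of every listed peak in the 13 regions of the lipogenesis genes that recurred in at least 3 libraries, 1 point per peak, coloured by group; regions are ordered by the number of listing libraries, ELOVL6 region 8 at the top with 14. Of the 8 regions with at least 2 high and 2 low fat 200 points, ACACA region 1 and ELOVL5 region 1 had all high fat 200 points to the right of the low fat 200 ones.

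FASN, the palmitate-building enzyme (chromosome 12, 922405 to 937560), was listed in a single library. High fat 200 replicate 1 had 1 peak from 927477 to 928171 inside the gene, with a −log10 p of 3.59, and 0.584% of that library's peaks were weaker. With a window of 2500 bp in place of 1000 bp, 4 libraries listed FASN, because a further region lay 1866 to 2321 bp below the lower end. Its −log10 p was 3.33 in high fat 600 replicate 7 against 3.47 in low fat 600 replicate 1, and 3.98 and 5.00 in high fat 200 replicates 1 and 7 with no low fat 200 library listed. SCD (chromosome 14, 111461560 to 111478033) was listed in high fat 200 replicate 1, where the peak sat at the lower end with 3.98, and in high fat 200 replicate 7, where another sat at the upper end with 5.00. Within 1000 bp, the libraries with peaks at FASN and SCD were the 2 with the largest lists, while the low fat libraries had lists of 8221 peaks or fewer.

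The enzymes of polyunsaturated chains were listed more often. ELOVL5 (chromosome 7, 46860768 to 46932945) had an internal region from 46873322 to 46874619 in 6 libraries and an end region from 46932115 to 46933277 in 4. The internal region had a −log10 p of 3.74 in high fat 600 replicate 7 and of 5.55 and 5.18 in high fat 200 replicates 1 and 7, against 4.69, 3.98 and 3.99 in low fat 200 replicates 1, 6 and 7. The end region had 3.57 in high fat 600 replicate 1 and 4.88 in high fat 200 replicate 1, against 4.25 and 4.15 in low fat 200 replicates 1 and 7. High fat 600 libraries listed ELOVL5 in 2 cases and low fat 600 libraries in 0, too few to be tested. FADS2 (chromosome 2, 9633941 to 9666666) had 6 peaks in 4 regions, each region in 1 or 2 libraries, with a −log10 p from 3.26 to 4.69. Of these, region 2 and region 4 overlap the long noncoding RNA genes LOC106509334 and LOC100739565.

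Both transcription factors of the pathway were listed in the 200 set alone, as were ACLY, FASN and SCD. Of all protein-coding genes 33.2% were listed in at least 1 of the 600 libraries and 60.5% in at least 1 of the 200 libraries. SREBF1 (chromosome 12, 60733967 to 60750951) had 5 peaks in 5 separate regions, each from 1 library, so that no site recurred. They came from high fat replicates 1, 3 and 7 with 1 each and low fat replicate 6 with 2, at a −log10 p of 3.74 to 4.37. MLXIPL (chromosome 3, 10898675 to 10934257) had 1 recurrent region, from 10933857 to 10934536 at its upper end, with 4.32 and 4.60 in high fat replicates 1 and 7, against 3.42 in low fat replicate 1. No peak among the 8221 of low fat replicate 1 had a lower value than that one.

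Whether lipogenesis genes were listed more often in libraries labelled high fat than in those labelled low fat was asked on the number of libraries that listed each gene, separately in the 600 and 200 sets. No gene of the 10 passed Fisher's exact test (two-sided, Benjamini-Hochberg adjusted over all tested genes, threshold 0.05) in either set. In the 200 set 8 of the 10 could be tested, and 0 of 8 passed, against 0% of all 7792 genes. Among all genes 4, or 0.0513%, had an unadjusted p under 0.05, and 0 of these were lipogenesis genes. SREBF1 was listed in 3 high fat against 1 low fat library (exact p = 0.559, adjusted p = 1), and ACACA in 2 high fat against 4 low fat libraries (exact p = 0.592, adjusted p = 1). ELOVL6 was listed in 5 against 4, THRSP in 3 against 3, ELOVL5 and ACLY in 2 against 3 each, and FADS2 and MLXIPL in 2 against 1 each, high fat before low fat (exact p = 1 for each). So 4 genes had more high fat and 3 more low fat libraries, with 1 equal. Over all tested genes 35.2% had more high fat and 38.5% more low fat libraries.

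In the 600 set 3 of the 10 could be tested and 0 of 3 passed, against 0% of 3735 genes, of which 0 had an unadjusted p under 0.05. ELOVL6 was listed in 3 high fat against 4 low fat libraries, and THRSP and ACACA in 2 against 2 each (exact p = 1 for each). With 7 libraries against 7 the smallest p is 0.000583, and at least 91 genes in the 200 set and 44 in the 600 set would have to reach it before any could pass. A fat difference at a single gene was therefore not detectable in this design.

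Between the 600 and the 200 libraries every tested lipogenesis gene was listed less often in the 600 set, without any passing the test. The direction held for 8 of 8 genes, against 85.9% of all 8608 tested genes. ELOVL6 was listed in 7 600 against 9 200 libraries, THRSP and ACACA in 4 against 6 each, ELOVL5 in 2 against 5 and FADS2 in 2 against 3. ACLY (0 against 5, Fisher's exact p = 0.0407, adjusted p = 0.743), SREBF1 (0 against 4, exact p = 0.0978, adjusted p = 0.743) and MLXIPL (0 against 3, exact p = 0.222, adjusted p = 0.743) were listed in 200 libraries alone. At an unadjusted p under 0.05 stood 4.97% of all genes and, of the lipogenesis genes, ACLY. An exact sign test within libraries of the same title number gave ACLY an unadjusted p of 0.0625 (5 pairs with the 200 library alone, 0 with the 600 library alone). At each of the 10 genes 0 pairs listed it in the 600 library alone, and between 1 and 5 pairs in the 200 library alone. No such count over all genes is given here, so the pair counts cannot be called particular to the lipogenesis genes. The 85.9% of tested genes listed less often in the 600 set counts libraries and not pairs. The 200 libraries held 62190 listed peaks in all and the 600 libraries 22002. None of the 8608 genes passed the adjusted threshold (0%).

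Where a 600 and a 200 library of the same title number listed the same lipogenesis region, the 600 peak was the wider one in 36 of 36 cases. These cases came from 5 pairs of libraries, with 3 to 10 regions each, and are not independent. Most of them were at ELOVL6, and the rest at THRSP, ACACA, ELOVL5 and FADS2. Over all regions it was the wider one in 92.1% of 18040 cases, from 14 pairs. The median width ratio, 600 over 200, was 1.50 at the lipogenesis genes and 1.56 over all regions. At ELOVL6 region 8 the peaks measured 1172, 1101, 998, 986 and 1430 bp in the 600 libraries (high fat replicates 1 and 7, then low fat replicates 1, 6 and 7), against 610, 932, 619, 619 and 762 bp in the 200 libraries of the same fat group and number. The −log10 p went the other way, lower in the 600 library in 33 of 36 cases at the lipogenesis genes and in 94.4% over all regions, by a median difference of −1.38 in each (600 minus 200). The 3 exceptions were all in ELOVL6, 1 in region 2 and 2 in region 7.

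**Figure D5:**
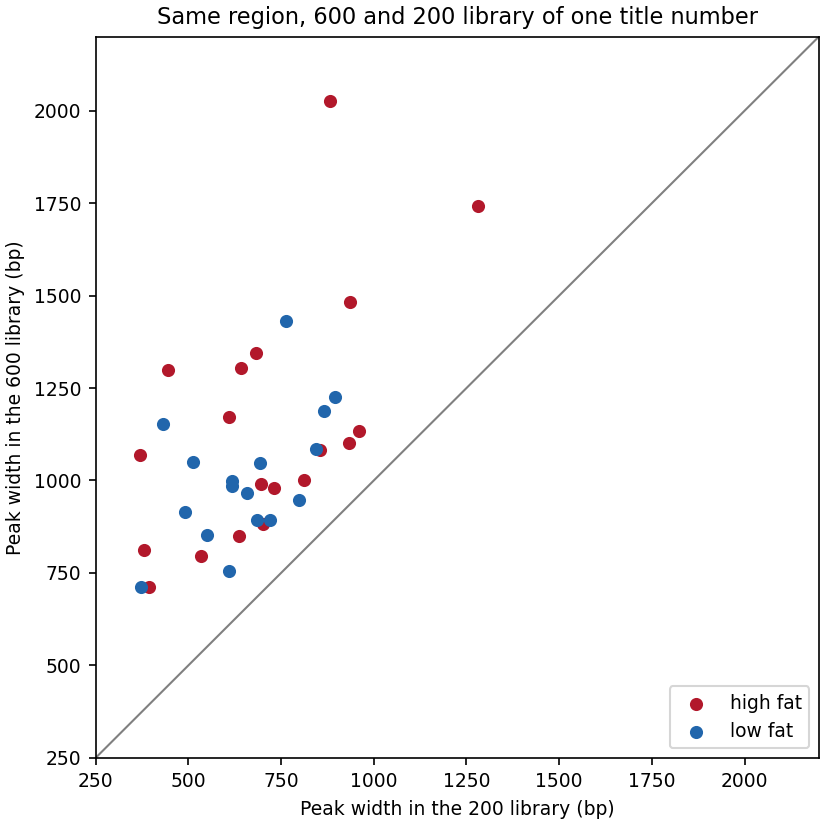
Peak width in bp in the 600 library (vertical axis) against the 200 library of the same title number (horizontal axis) for the 36 cases, from 5 pairs of libraries, in which both listed the same lipogenesis region, coloured by fat group; the line marks equal widths. All 36 points lie above the line.

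Most genes of the wider pathway were listed as well, against 61.6% of all protein-coding genes. The median was 4 libraries for precursor and NADPH supply and 4 for regulators. It was 1 for elongation and desaturation partners, the same as over all protein-coding genes. Of 8 genes of precursor and NADPH supply, 6 were listed, with the isocitrate dehydrogenase gene IDH1 in 17 libraries, the citrate carrier gene SLC25A1 in 8 and ACSS2, which makes acetyl-CoA from acetate, in 5, while the malic enzyme gene ME1 and MDH1 had none. Of 9 genes of elongation and desaturation partners, 7 were listed, led by the trans-enoyl-CoA reductase gene TECR in 12 libraries, HSD17B12 in 10 and HACD2 in 4. ELOVL3 and ACACB, the mitochondrial form of acetyl-CoA carboxylase, had none. Of 12 regulators, 10 were listed, led by INSIG2 in 12 and INSIG1 in 10, which hold the sterol regulatory element-binding proteins in the endoplasmic reticulum, and by MID1IP1, a relative of THRSP, in 8. MLX, the partner of the MLXIPL protein, and USF2 had none. In each of the 3 comparisons 0 genes of these lists passed the adjusted test in either direction, against 0% of all genes.

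Genes with the same listing pattern were sought for the 4 genes listed in at least 7 libraries. Likeness was measured as the Jaccard index, the shared listing libraries as a part of those that list either gene, over 28 libraries. An index of 1 was reached with THRSP by 38 named protein-coding genes, with ELOVL5 by 35 and with ACACA by 105. With ELOVL6, in 16 libraries, it was reached by 5, CCDC85C, CD82, GLRX5, HDAC4 and ING2, which were named after their values were seen. The libraries that listed THRSP were exactly the 10 with the largest peak lists, and ACACA was listed in 9 of these. The part of list size in the shared patterns was not tested.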

How the data were processed

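Per the submitters' processing notes, FastQC, BWA, SAMtools, Picard and Genrich were used with build Sscrofa11.1, and no source used here gives their roles or versions. The deposited peak table lists peaks per library, not pooled, and holds no read counts. Its signal is the peak area and its −log10 p is per peak, as deposited by the authors; the deposited score is 1000 times that area divided by the width, capped at 1000. The summit offset, per the file headers, was used in 1 alternative. Areas were not compared. Gaps in the running peak names leave at most 3.04% to 52.6% of numbered peaks listed per library, and no source used here gives the filter behind this. Starts were raised by 1 to count from 1, since end minus start gave the width behind the score in 99.9988% of peaks.

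Peaks were assigned to genes by their centre with a window of 1000 bp. Peaks of all 28 libraries sharing at least 1 bp were joined into regions. Genes listed in at least 3 of the libraries compared entered a two-sided Fisher's exact test with Benjamini-Hochberg adjustment over all of them, and the code was tested on simulated data. The genes, lists and tests were chosen with earlier results of these data known. All 10 genes are named, with values for each region in at least 3 libraries; of the wider lists, the 3 leading genes and those with none; for patterns, the 3 nearest genes, or a count where more are tied. Of the list of precursor and NADPH supply, 1 gene is not reported here. Of the markers, KRT7 matched no annotated gene and was left out. No promoter or peak sequence was used here. Alternatives were other windows, ways to locate a peak, strength limits, filters, the replicate block and left-out libraries. Python 3.11.15 was used with scipy 1.17.1, pandas 2.3.3, numpy 2.4.6 and, for figures, matplotlib 3.10.9.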

Additional observations from a re-analysis of the deposited data

How the results depend on the processing

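Depth is unknown. With the top decile of peaks by −log10 p, 3 of the 10 genes were listed instead of 10, which a stricter limit gives by construction. For the 600 against 200 comparison, genes passing the adjusted test numbered 2 with a window of 2500 bp, 3 with 5000 bp and 1 with the top decile, against 0, and with regions in place of genes 42 of 8592 passed; the cause was not tested, and no lipogenesis gene or region was among them. The fat comparisons gave 0 passing genes under every alternative run, which in a design this small shows no stability. Of 196 recomputed differences between groups at single lipogenesis genes, 0 passed, with a smallest adjusted p of 0.537; 177 kept their sign or stayed at 0, 16 went to 0 or left it, and 3 turned. ELOVL6 stood 7.14 percentage points of libraries higher in the 600 set at gene ends alone, ELOVL6 stood at −14.3 points for high minus low fat 200 in the top decile, and ELOVL5 at 14.3 points for high minus low fat 200 with peaks above the median strength. FASN was listed in 4 libraries with windows of 2500 and 5000 bp, against 1. Of the shares of libraries listing a gene, 78 of 100 stayed within the exact binomial interval of the main share, where leaving out libraries changes the share even at an equal count. With libraries of at least 1000 peaks, chosen after seeing the data, 10 of 10 genes were listed and 0 genes passed in each comparison. With the replicate block, an exact sign test within shared numbers, 0 genes passed in each comparison; with 7 pairs its smallest p is 0.0156, which could not pass, and with 14 pairs 0.000122, which 22 genes would have to reach. Libraries sharing a replicate number across fat groups had correlated deviations over 0.1 in 3 of 7 pairs (200) and 6 of 7 (600), and those sharing a title number in 9 of 14 (r from 0.00785 to 0.660). As not every pair exceeded 0.1, the numbers were not taken as pairing the samples, which leaves unsettled whether a title number marks 1 animal; 4 of 7, 2 of 7 and 5 of 14 correlated best with their own number.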
